A study of Mus musculus with 13 samples.

Results

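The mammary tumors described here were divided by how strongly they expressed 3 genes of the inner root sheath, the sleeve of cells that surrounds and shapes a growing hair: Tchh, Krt25 and Krt71. Each of the 10 tumors of the series was scored by the mean of log2(value + 1) over these genes, and the 5 tumors with the highest scores were set against the 5 with the lowest across the 15210 other genes of the deposited table. The high tumors were, in order of score, tumors 7, 10, 9, 2 and 5, and the low tumors were tumors 6, 8, 3, 4 and 1. All values below are given in these orders. The sets were made from measured values and are not groups of the study, so the 3 genes that chose them are described without a test.

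The RNA came from 10 tumors of 6 females labelled MtTA Teto-TSG101wt and from the mammary glands of 3 wild-type FVB females, 13 libraries in all. The tumor-bearing females carried MMTV-tTA and TetO-Tsg101, a responder that adds mouse TSG101 and luciferase in the absence of doxycycline. In glands without TetO-Tsg101 the study finds the transactivator MMTV-tTA active in a subset of luminal epithelial cells. It describes the large tumors as adenosquamous carcinomas, in which basal epithelial cells also carried the reporter of MMTV-tTA. Every tumor shares both transgenes, so the high and low sets do not differ in genotype, and the glands are given below as levels only. Tumors 10, 9 and 8 shared a mouse, as did tumors 2 and 3 and tumors 5 and 6, whereas tumors 7, 4 and 1 were each the only tumor sequenced from their mouse. Tumors that share a mouse are not independent samples, and p-values over the 10 tumors count them as if they were. Ages are not given in the labels, and the labels name 2 sequencing providers without saying which library each one made.

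A growing hair is built by matrix cells at the base of the follicle. They divide and give rise to concentric layers: the companion layer, the inner root sheath with its own keratins and trichohyalin, and the hair shaft, whose acidic and basic hair keratins are embedded in cysteine- and glycine-rich keratin-associated proteins. Wnt and BMP signals and the transcription factors HOXC13, FOXN1, MSX2, DLX3 and GATA3 direct these fates, while the outer root sheath and the bulge around them express the keratins of basal epithelium. Mammary epithelium normally makes none of the hair layers, but hair follicle and mammary gland both form from the surface ectoderm.

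The values are read counts per gene divided by an effective library size, here called normalized cpm, a count scaled to a common library size. Between 6176269 and 8811952 reads were listed in the high tumors, between 7047225 and 16835397 in the low tumors and between 11672487 and 23889042 in the glands. With no read seen, up to 3 reads remain possible (95% confidence, counting error only), and this floor was at most 0.683 normalized cpm in any tumor. The ribosomal RNA gene Rn45s took 27.4% of the reads of tumor 9 and 9.32% of those of tumor 6, and between 0.456% and 4.07% of those of the other 8 tumors. Its part in the differences below was not tested, and values without tumors 6 and 9 are given in the closing section.

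Tchh encodes trichohyalin (chr3:93442330-93449077 in GRCm38.p6, the mm10 build), which is cross-linked into the hardened inner root sheath. It reached 1912, 309, 1454, 294 and 339 normalized cpm in the high tumors, against 219, 241, 165, 105 and 94 in the low tumors and 6.72, 13.1 and 8.66 in the glands. Krt25 (chr11:99315516-99322951), an acidic keratin of the inner root sheath, stood at 133, 61.4, 18.9, 26.2 and 21.9 in the high tumors and 24.7, 14.7, 16.2, 8.4 and 1.62 in the low tumors, and at 0, 0 and 0.122 in the glands. Krt71 (chr15:101733949-101743097), a basic partner keratin, stood at 122, 56, 10.5, 19.4 and 14.2 and 12.4, 9.77, 8.88, 2.49 and 5.28, and at 0.685, 0.103 and 0 in the glands. All 10 tumors were above all 3 glands in each of these genes, so that the low tumors are low only relative to the others. Tchh alone separated the sets without overlap. Tumor 9 owed its place to Tchh, since its Krt25 and Krt71 were below those of tumor 6, the highest of the low tumors.

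**Figure D1:**
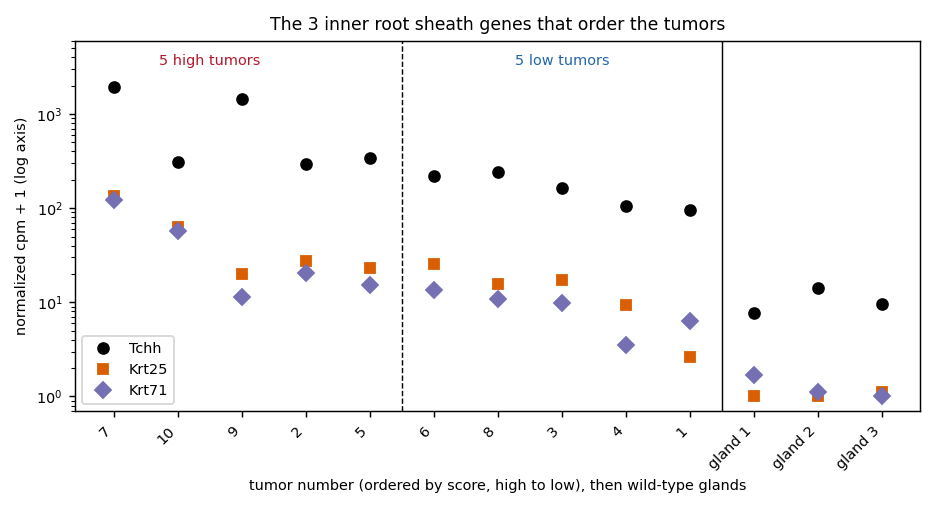
Normalized cpm + 1 (log axis) of Tchh, Krt25 and Krt71 in each tumor, ordered by score from high to low, and in the 3 wild-type glands; each point is 1 library. Tumor 7 stands above all others in Krt25 and Krt71, and tumors 5 and 6, on either side of the dashed line between the sets, lie close together.

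The scores fell from 8.30 in tumor 7 through 6.69, 6.11, 5.77 and 5.62 in the other high tumors to 5.40, 5.11, 4.93, 3.92 and 3.54 in the low tumors, and were between 1.15 and 1.32 in the glands. Their means were 6.50 ± 1.09 (SD, n = 5) and 4.58 ± 0.806 (SD, n = 5). The order is close to continuous: tumors 5 and 6, on either side of the division, differed by 0.216 and came from the same mouse. Tumor 7 stood further from the next tumor than any other neighbors in the order did, so each comparison was repeated without it, with 4 tumors against 5.

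The 250 bases before the annotated start of the genes that divide the tumors, and of genes that varied with them, are shown so that shared sequence can be seen beside the expression values. They are RefSeq sequence of GRCm38.p6, written 5′ to 3′ on the coding strand. Capitals mark TATAAA (the TATA box), AGATAA (core of the GATA site) and CTTTGA or CTTTGT (core of the TCF/LEF site) on either strand. In Tchh an AGATAA overlaps a CTTTGA of the other strand. Krt25 (chr11:99322952-99323201, minus strand), Krt71 (chr15:101743098-101743347, minus strand) and Tchh (chr3:93442080-93442329, plus strand) chose the sets. Krt26 (chr11:99337966-99338215, minus strand) lies beside Krt25, Prr9 (chr3:92123948-92124197, minus strand) and Mt4 (chr8:94136954-94137203, plus strand) had the largest differences between sets that did not overlap, and Krt34 (chr11:100041555-100041804, minus strand) stands for the hair shaft keratins.
Krt25: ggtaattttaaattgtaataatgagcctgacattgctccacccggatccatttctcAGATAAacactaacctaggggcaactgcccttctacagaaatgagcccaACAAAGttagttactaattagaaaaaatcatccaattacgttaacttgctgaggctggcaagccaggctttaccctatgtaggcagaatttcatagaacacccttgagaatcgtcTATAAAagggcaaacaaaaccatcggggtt
Krt71: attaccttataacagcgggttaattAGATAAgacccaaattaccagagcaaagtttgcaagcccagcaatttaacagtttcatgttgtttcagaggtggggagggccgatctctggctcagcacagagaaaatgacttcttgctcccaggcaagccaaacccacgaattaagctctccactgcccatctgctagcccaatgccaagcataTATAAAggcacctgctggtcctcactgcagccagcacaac
Tchh: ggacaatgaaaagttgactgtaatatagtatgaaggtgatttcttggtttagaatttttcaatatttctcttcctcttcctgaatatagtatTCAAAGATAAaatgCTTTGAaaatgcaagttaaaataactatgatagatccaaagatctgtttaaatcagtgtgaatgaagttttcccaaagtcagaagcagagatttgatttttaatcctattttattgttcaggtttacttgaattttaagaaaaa
Krt26: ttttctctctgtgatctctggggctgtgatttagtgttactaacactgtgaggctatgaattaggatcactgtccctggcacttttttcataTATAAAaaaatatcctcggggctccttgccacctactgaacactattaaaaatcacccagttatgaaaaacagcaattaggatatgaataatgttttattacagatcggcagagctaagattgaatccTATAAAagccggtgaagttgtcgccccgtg
Prr9: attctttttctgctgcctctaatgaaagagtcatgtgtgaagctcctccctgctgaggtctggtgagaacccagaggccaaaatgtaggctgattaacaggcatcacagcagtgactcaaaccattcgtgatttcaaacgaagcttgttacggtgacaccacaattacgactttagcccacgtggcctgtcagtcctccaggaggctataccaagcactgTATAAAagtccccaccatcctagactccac
Mt4: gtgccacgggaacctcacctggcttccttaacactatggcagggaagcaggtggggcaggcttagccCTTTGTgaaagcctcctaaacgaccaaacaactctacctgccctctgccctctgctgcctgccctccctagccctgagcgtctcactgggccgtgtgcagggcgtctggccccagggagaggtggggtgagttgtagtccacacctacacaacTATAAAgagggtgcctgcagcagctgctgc
Krt34: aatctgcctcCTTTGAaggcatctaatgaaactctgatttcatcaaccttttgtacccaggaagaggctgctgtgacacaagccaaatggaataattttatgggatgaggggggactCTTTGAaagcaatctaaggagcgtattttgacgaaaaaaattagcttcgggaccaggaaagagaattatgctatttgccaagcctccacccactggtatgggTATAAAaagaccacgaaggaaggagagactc
TATAAA began 30 bases before the start in Krt25, Krt26, Prr9 and Mt4, 31 before it in Krt34 and 40 before it in Krt71, whereas the Tchh window held none. Windows were at hand for 13 inner root sheath genes, the 3 that chose the sets included, for 7 of the 13 measured hair shaft keratins and for 24 of the 27 keratin-associated proteins. TATAAA was found in 9 of 13 windows of inner root sheath genes (69.2%), 5 of 7 of hair shaft keratins (71.4%) and 21 of 24 of keratin-associated proteins (87.5%), against 1035 of the 11673 windows of all listed genes with a promoter sequence (8.87%). AGATAA stood in 5 of 13 inner root sheath windows (38.5%), none of 7 of the hair shaft keratins and 4 of 24 of the keratin-associated proteins (16.7%), against 7.42% of all windows. CTTTGA stood in 2 of 13 (15.4%), 4 of 7 (57.1%) and 7 of 24 (29.2%) windows of these lists, against 12.9% of all windows, and CTTTGT in 15.4%, 14.3% and 16.7% of the windows of the 3 lists, against 14.8% of all windows. Many of these genes are neighboring copies of one another, so their windows are not independent, and a match is a description of the letters and not evidence that a factor binds there.

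Tsg101 itself (chr7:46888949-46926320), the gene carried by the transgene, was measured at 64, 71, 101, 62.7 and 72.6 normalized cpm in the high tumors, 58.5, 55.3, 49.9, 50.8 and 79.3 in the low tumors and 45.6, 53 and 61 in the glands. The means were 74.3 ± 15.7 (SD, n = 5), 58.8 ± 12 (SD, n = 5) and 53.2 ± 7.68 (SD, n = 3). The sets overlapped, with tumor 1, the lowest by score, second only to tumor 9. The difference between the sets was 0.33 ± 0.18 (SE) on the log2 scale. Reads of the transgene and of the endogenous gene could not be told apart in these values.

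Across all genes, the sets were compared with limma on log2(normalized cpm + 1), with genes counted as called at an adjusted p (Benjamini-Hochberg) below 0.05 and a change beyond 2-fold. The fit tested 11898 genes above 5 normalized cpm in at least 5 of the 10 tumors, and none was called higher or lower (0% in each direction). The adjusted p was 0.498 for Gpihbp1 and 0.571 or more for every other gene. At an unadjusted p below 0.05, 479 genes were higher in the high tumors (4.03% of those tested) and 290 were lower (2.44%). Without tumor 7 limma again called none of 11784 genes (0%), with 1502 at an unadjusted p below 0.05 and a smallest adjusted p of 0.368, for Podn. The count models gave different answers on the recovered reads: edgeR's quasi-likelihood test called none, with 694 at an unadjusted p below 0.05, and DESeq2 called 25 genes higher and 3 lower (Adgrb1, Sobp and Tcea3). With the score as a continuous term over the 10 tumors, limma called 10 genes higher, namely Crym, Dapl1, Fam25c, Fbp1, Hrnr, Krt26, Krt27, Krt28, Krt73 and Prr9, and none lower. Values from that fit are given below as the slope times the difference between the sets' mean scores. Without tumor 7 it called none. Only 5 genes were called both by DESeq2 and with the continuous score. Of the called genes named here, Sobp passed the filter only through the low tumors and Fbp1 only through the high tumors. The division itself thus decided that these genes were tested.

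Because limma called no gene with the sets as defined, the differences below are given as values. Each is the high tumors' mean minus the low tumors' mean of log2(normalized cpm + 1), with limma's standard error, and understates the change of genes near 0. The median difference over all 15210 genes was -0.02, and 48.1% of them were positive. For 39 of the 11898 genes tested, all 5 high tumors lay above all 5 low tumors (0.328%), and for 34 all lay below (0.286%). Without tumor 7 these were 70 (0.594%) and 89 (0.755%) of 11784. In bulk tissue, more cells of a type and more RNA per cell cannot be told apart.

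**Figure D2:**
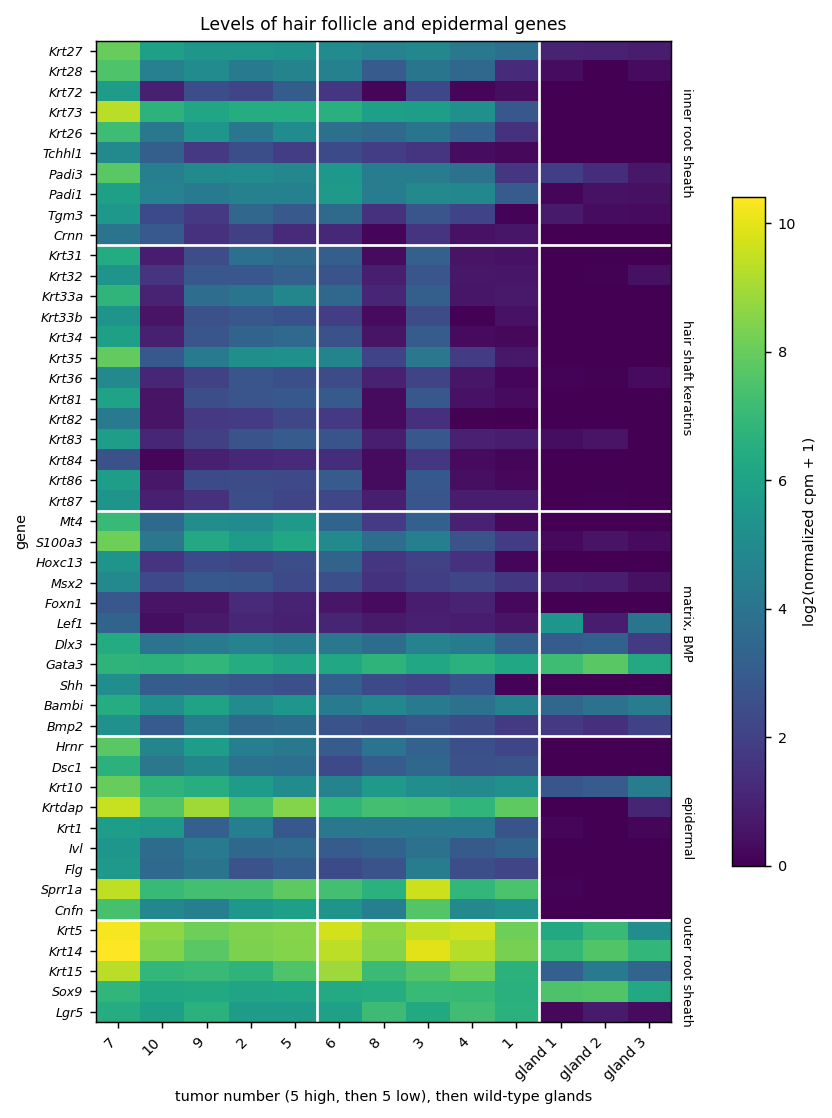
log2(normalized cpm + 1), by color, of hair follicle and epidermal genes (rows, grouped by role) in each tumor and gland (columns; the white vertical lines divide high tumors, low tumors and glands). Tumor 7 is the brightest column from the inner root sheath to the epidermal genes, tumor 10 is dark for hair shaft keratins, and the outer root sheath keratins at the bottom are bright in every tumor.

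The inner root sheath list holds 10 measured genes besides the 3 that chose the sets, and all 10 had a positive difference, with a median of 1.57 and a range of 0.23 to 1.95. With the mouse as a fixed term 9 of 10 were positive and the median was 0.55, and in the mouse of tumors 5 and 6 alone 5 of 10 were positive. Of these, 7 passed the filter on low values, and limma called none of them between the sets. With the score as a continuous term it called Krt26, Krt27, Krt28 and Krt73, among 10 called of the 11898 genes tested, and none without tumor 7. That score is made of the 3 genes that chose the sets. DESeq2 called Krt27 without tumor 7, among 33 called of 11784. Krt74 of the list was not analysed here. Krt27, an acidic inner root sheath keratin (chr11:99345565-99351118), stood at 257, 60.2, 44.2, 45 and 39.5 in the high tumors, 31.3, 23.3, 28.1, 16.8 and 13.1 in the low tumors and 1.03, 0.929 and 0.731 in the glands. Every high tumor was above every low tumor, by 1.57 ± 0.46 (SE), and by 1.08 without tumor 7. Krt26 (chr11:99328484-99337965) also did not overlap, with 145, 17, 41.7, 15.8 and 32.1 against 13.5, 11.1, 15.7, 8.73 and 1.8, a difference of 1.92 ± 0.61 (SE), although tumors 2 and 3 of the same mouse were nearly equal. It was listed at 0 in all 3 glands.

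Krt28, the fourth acidic member of the cluster, stood at 183, 21.9, 31.4, 18.8 and 24.4 against 23, 6.94, 15.6, 10 and 1.38, and Krt73, a basic partner, at 643, 105, 69, 85 and 84.9 against 96.7, 58, 54.6, 36.5 and 6.0. In both, tumor 6 exceeded some of the high tumors and the sets overlapped, with differences of 1.94 ± 0.69 and 1.74 ± 0.73 (SE). Without tumor 7 these were 1.36 and 1.16, and the lowest over all settings were 0.81 and 0.35. In the mouse of tumors 5 and 6 the differences were 0.08 and -0.19. Krt72, another basic keratin, was 53.2 in tumor 7 and at most 7.41 in any other tumor. Krt25, Krt26, Krt27 and Krt28 lie side by side on chromosome 11, as do Krt71, Krt72 and Krt73 on chromosome 15, and are close in sequence, so that reads shared between copies could tie their values to the genes that chose the sets.

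The enzymes that harden trichohyalin followed the order less closely. Padi3, which converts its arginines to citrulline, stood at 216, 20.7, 30.7, 31.7 and 27.3 against 46.4, 19.4, 19.4, 13.6 and 2.1, with tumor 6 second to tumor 7. Tgm3, a transglutaminase that cross-links it, stood at 45.2, 4.0, 2.28, 9.69 and 6.5 against 10.9, 1.77, 5.73, 3.38 and 0.060, again with tumor 6 second. Padi1 had the smallest difference of the list, 0.23 ± 0.45 (SE), and was -0.05 without tumor 7 and -0.16 without tumor 1. Tchhl1 and Crnn, which lie near Tchh on chromosome 3 and did not pass the filter, were highest in tumor 7 at 30.9 and 14.9 and next highest in tumor 10 at 8.0 and 6.52. All 10 genes of the list were highest in tumor 7, as were 13.3% of all genes. Without it, 9 of 10 remained positive, with a median of 1.09.

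The hair shaft keratins gave a median difference of 1.54 over 13 measured genes, all positive, of which 7 passed the filter and none was called by limma, edgeR or DESeq2, and Krt39, Krt40 and Krt85 were not analysed here. Krt35, an acidic keratin of the early hair cortex and cuticle, had the largest difference, 2.41 ± 0.92 (SE). It reached 236, 6.37, 19.3, 35.3 and 35.9 in the high tumors and 25, 3.3, 16.5, 2.63 and 0.60 in the low tumors, and was listed at 0 in the glands. Krt31, another acidic cortex keratin, stood at 83.1, 0.741, 4.55, 13.1 and 11.1 against 7.93, 0.235, 8.2, 0.469 and 0.42, and Krt34 at 59.3, 0.889, 5.69, 8.86 and 10.7 against 4.91, 0.471, 7.19, 0.235 and 0.18. The sets overlapped in each of the 13 genes. Tumor 10, second by score, held less of Krt31, Krt34 and Krt35 than tumors 6 and 3, and by the mean over all 13 genes it ranked seventh among the 10 tumors, at 0.986 on the log2 scale against 5.59 in tumor 7 and 3.03 in tumor 5.

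The basic hair keratins Krt81 and Krt86 had a Pearson's r with the score of 0.72 and 0.73 over the 10 tumors, against 0.70, 0.75 and 0.82 for Krt31, Krt34 and Krt35. Their Spearman's rho was 0.50 and 0.54, against 0.58, 0.66 and 0.71. Krt81 stood at 62.8, 0.445, 4.55, 5.67 and 6.38 against 6.7, 0.235, 6.18, 0.422 and 0.24, and Krt86 at 56.3, 0.593, 4.1, 4.14 and 3.87 against 6.99, 0.235, 6.29, 0.329 and 0.18, so that tumor 6 exceeded every high tumor but tumor 7 in both. Their differences of 1.54 ± 0.90 and 1.34 ± 0.88 (SE) became 0.77 and 0.55 without tumor 7. Krt81, Krt83 and Krt86 are near-identical copies, as are Krt33a and Krt33b, and their separate values are uncertain. All 13 shaft keratins were highest in tumor 7, and 12 of them were at or below the floor of 3 reads in all 3 glands. Without tumor 7 the 13 stayed positive with a median of 0.87, and with the mouse as a fixed term 12 were positive with a median of 0.58.

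Keratin-associated proteins form the matrix around the shaft keratins, and the 27 in the table were all positive, with a median of 1.46, all highest in tumor 7 and all at or below the floor in the glands. Only 2 of them passed the filter, and neither was called by limma, edgeR or DESeq2. Krtap8-1, a glycine- and tyrosine-rich member, was measured at 152, 1.78, 20.9, 16.4 and 22.1 in the high tumors and 10.3, 1.65, 8.99, 0.282 and 1.14 in the low tumors, a difference of 2.43 ± 0.92 (SE). Krtap7-1 stood at 120.0, 1.04, 16.2, 13.4 and 24.5 against 8.31, 0.941, 9.78, 0.329 and 0.78. In both, as in the shaft keratins, tumor 10 was lower than tumors 6 and 3. Summed over the list, tumor 7 held 824 normalized cpm, tumors 5, 9 and 2 held 182, 169 and 101, and tumor 10 held 9.49, below the 85.4 of tumor 3 and the 72.6 of tumor 6. Without tumor 7 all 27 remained positive, with a median of 0.90, and with the mouse as a fixed term the median was 0.72.

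**Figure D3:**
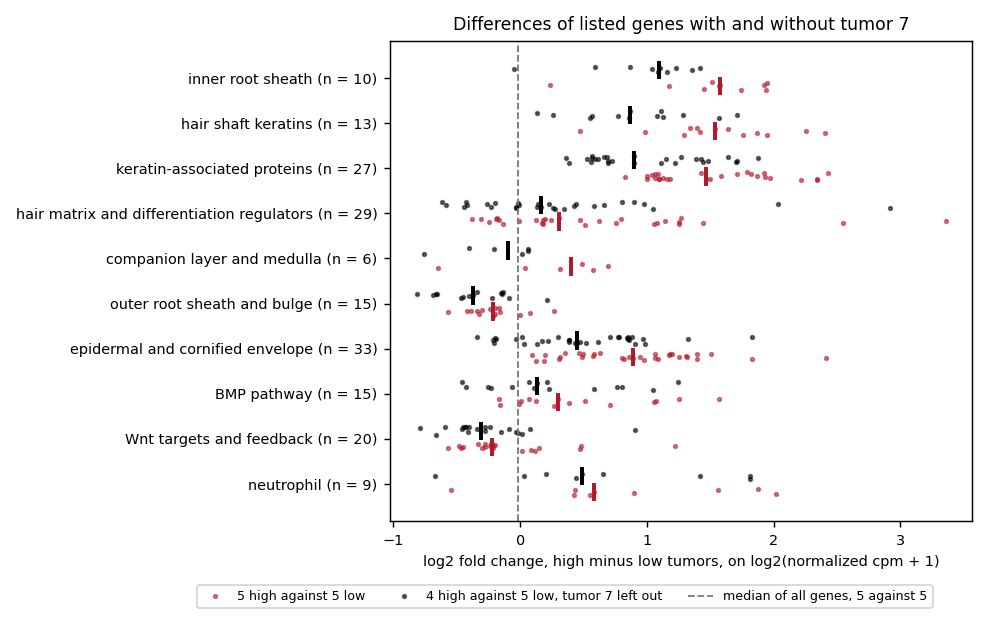
Difference between high and low tumors, log2(normalized cpm + 1), for each gene (points) of 10 lists with 5 against 5 tumors (red) and without tumor 7 (black); bars are medians and the dashed line is the median of all genes, -0.02. Inner root sheath, hair shaft keratin and keratin-associated protein genes lie to the right of the line in both comparisons, apart from Padi1 without tumor 7, and the outer root sheath genes lie mostly to the left.

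Among the regulators and products of the hair matrix, 21 of 29 genes had a positive difference, with a median of 0.31. In 2 of the 29, Mt4 and Bambi, all high tumors lay above all low tumors, as they did in 0.454% of all 15210 genes. The count and median were 17 and 0.16 without tumor 7, 17 and 0.16 with plain library totals, 16 and 0.14 with the mouse as a fixed term and 24 and 0.59 with the score as a continuous term. Mt4, a metallothionein of stratified and follicular epithelium (chr8:94137204-94139031), reached 131, 11.1, 34.1, 31.7 and 47.3 in the high tumors and 9.25, 2.59, 8.2, 0.939 and 0.18 in the low tumors, and was listed at 0 in the glands. Its difference of 3.36 ± 0.69 (SE, limma unadjusted p = 0.000389) was the largest of all genes named here, and it was 2.92 without tumor 7. S100a3, a calcium-binding protein of the hair cuticle, stood at 278, 16.5, 76.2, 51.2 and 71.8 against 30.5, 12.1, 21.8, 5.26 and 2.58, where only tumor 10 fell below a low tumor. Its difference was 2.54 ± 0.72 (SE).

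Of the transcription factors of hair differentiation, Hoxc13, Msx2, Dlx3, Foxn1 and Lef1 were highest in tumor 7, and Gata3 was not. Hoxc13 was 40.6 in tumor 7, 8.97 in tumor 6 and at most 4.67 elsewhere. Msx2 was 29.3 in tumor 7 and between 1.88 and 6.37 in the others, and Dlx3 was 83.5 in tumor 7 and between 8.22 and 23.4 in the others. Foxn1 was 6.08 in tumor 7 and at most 1.42 in the others. Lef1, which carries Wnt signals to hair keratin genes, was 9.12 in tumor 7 and at most 1.18 in the others, against 43.3, 0.774 and 15.6 in the glands. The summed lymphocyte list stood at 779, 54.8 and 849 in these glands, 38.6 in tumor 7 and 388 in tumor 1. The part of lymphocytes in Lef1 was not tested. Gata3, which specifies the inner root sheath and is also a factor of luminal mammary cells, stood at 108, 103, 119, 87 and 67.1 against 74.6, 107, 71.7, 98.9 and 73.1, and its difference of 0.18 ± 0.19 (SE) became -0.017 when the libraries were scaled by their plain totals. Without tumor 7 the differences of Hoxc13, Msx2, Dlx3, Foxn1 and Lef1 were 0.44, 0.58, 0.34, 0.22 and -0.04.

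The outer root sheath did not share the pattern. Of 15 genes of the outer root sheath and bulge, 2 had a positive difference and the median was -0.22, or -0.37 without tumor 7 and 0.0034 with the score as a continuous term, with none called by limma, edgeR or DESeq2 and none separated. Krt5 and Krt14, the keratin pair of basal epithelium, were highest in tumor 7 at 1221 and 1358, but the other 4 high tumors, between 279 and 403 for Krt5, lay within the 275 to 829.5 of the low tumors. Their differences of -0.32 ± 0.43 and -0.39 ± 0.47 (SE) were -0.69 and -0.82 without tumor 7, and they turned positive, at 0.34 for each, when the score was used as a continuous term. Krt15, a keratin of the bulge, stood at 651, 117, 129, 107 and 187 against 475, 137, 196, 296 and 104. Its difference of -0.20 ± 0.52 (SE) turned positive under several alternatives, edgeR and DESeq2 among them. Lgr5, a receptor that marks the lower outer root sheath, stood at 86.3, 58.5, 100.4, 51.3 and 51.2 against 61, 139, 79, 146 and 101.

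Companion layer and medulla keratins gave a median of 0.40 over 6 genes, 5 of them positive, which became -0.10 without tumor 7, -0.33 with the mouse as a fixed term and 0.81 with the score as a continuous term. Krt75, which the companion layer expresses, stood at 249, 51.6, 48.3, 100.1 and 40 against 61.3, 158, 102, 30.8 and 14.2, so that tumor 8 came second to tumor 7 and the sets overlapped throughout. Krt6b, whose reads can be shared with Krt6a, was 391 in tumor 7 and 170.4 in tumor 3, and between 16.1 and 57.7 in the other 8.

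Genes of the interfollicular epidermis and its cornified envelope, the protein shell of the dead outer layer, are a different squamous program from the hair layers. All 33 measured had a positive difference, with a median of 0.89 (0.45 and 27 of 33 positive without tumor 7, and 0.32 and 25 of 33 with the mouse as a fixed term), and 30 were highest in tumor 7. Hrnr, which encodes the envelope protein hornerin, was 211, 25.6, 55.1, 21.7 and 17.4 in the high tumors, 6.99, 14.6, 8.54, 4.74 and 3.54 in the low tumors and 0 in the glands, without overlap and with a difference of 2.41 ± 0.60 (SE). Dsc1, a desmosomal cadherin of the upper epidermis, stood at 101, 16.3, 26.2, 13.9 and 13 against 3.96, 7.06, 10.3, 5.02 and 5.4, likewise without overlap, a difference of 1.83 ± 0.48 (SE).

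Other epidermal genes were less tied to the score. Krtdap, a secreted protein of differentiating keratinocytes, stood at 749, 196, 479.8, 164 and 354 against 113, 155, 149, 114 and 229, and Krt10, the acidic keratin of the suprabasal layers, at 253, 108, 88.3, 53 and 31.7 against 24.4, 48.2, 33.3, 28.9 and 36.1. Tumor 1 exceeded some high tumors in both, and the sets overlapped. Sprr1a, a small proline-rich envelope protein, was 776 in tumor 3 of the low set, above the 679 of tumor 7 and the 128 to 224 of the other high tumors. Summed over the list, tumor 3 (4821 normalized cpm) came second to tumor 7 (9868), and tumors 10, 9, 2 and 5 held 2012, 3243, 2366 and 2972, against 1893, 1570.2, 1701 and 2197 in tumors 6, 8, 4 and 1. Much of such a sum comes from the most abundant members.

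Among all genes whose sets did not overlap, Mt4, Prr9, Hrnr, Cstdc5, Crym, Krt26, Ptgs2, Dsc1, Fbp1 and Calm4 had the largest differences above. Prr9, a proline-rich protein encoded in the epidermal differentiation complex (chr3:92122204-92123947), reached 1397, 253, 567.9, 202 and 327 against 95.1, 99.6, 102, 25.8 and 21.3, and was listed at 0 in the glands. The difference was 2.89 ± 0.59 (SE, limma unadjusted p = 0.000378), and 2.46 without tumor 7. Cstdc5, a cystatin-domain protein, stood at 317, 74, 144, 79.8 and 166 against 21.1, 35, 43.9, 32 and 37.8, and Calm4, a calmodulin-like protein of the epidermis, at 479, 109.7, 136, 87.9 and 67 against 32.5, 42.2, 65.6, 26.1 and 46.3. Their differences were 2.00 ± 0.36 and 1.70 ± 0.45 (SE), and that of Cstdc5 was 1.32 with the score as a continuous term.

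The other genes at the top of that order are not specific to skin. Crym, a thyroid hormone-binding protein, stood at 76.2, 9.93, 20.3, 7.92 and 14.5 against 6.14, 3.06, 7.42, 2.58 and 2.22, and Fbp1, an enzyme of gluconeogenesis, at 37, 7.56, 10, 5.32 and 6.95 against 2.17, 2.47, 4.95, 1.88 and 1.44, and both were called with the score as a continuous term. Fbp1 passed the filter of 5 normalized cpm only through the high tumors, and did not pass it without tumor 7, so its call is no support for the difference. Ptgs2, the inducible cyclooxygenase, was highest in tumor 9 and stood at 33.7, 11, 70.8, 13.2 and 21.5 against 4.53, 9.18, 8.09, 5.35 and 3.48, with a difference of 1.87, or 1.24 with the score as a continuous term. Gpihbp1, which carries lipoprotein lipase across the capillary wall and had the smallest adjusted p (limma, 0.498), stood at 28.9, 37.1, 41.7, 18.7 and 25.5 against 7.36, 10, 6.29, 7.98 and 14.8, without overlap, and at 66.1, 81.7 and 204 in the glands. Its difference was 1.61 ± 0.26 (SE) with tumor 7 and 1.61 without it, and was 0.85 with the score as a continuous term. Of the 10 endothelial markers, 9 had a positive difference, with a median of 0.28, which became 0.18 without tumor 7, 0.15 (7 of 10 positive) without tumor 1 and 0.10 with plain library totals. Their summed level was 275, 226, 166, 203 and 186 in the high tumors and 259, 235, 207, 282 and 135 in the low tumors. Whether the level of Gpihbp1 followed capillary content was not tested.

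**Figure D4:**
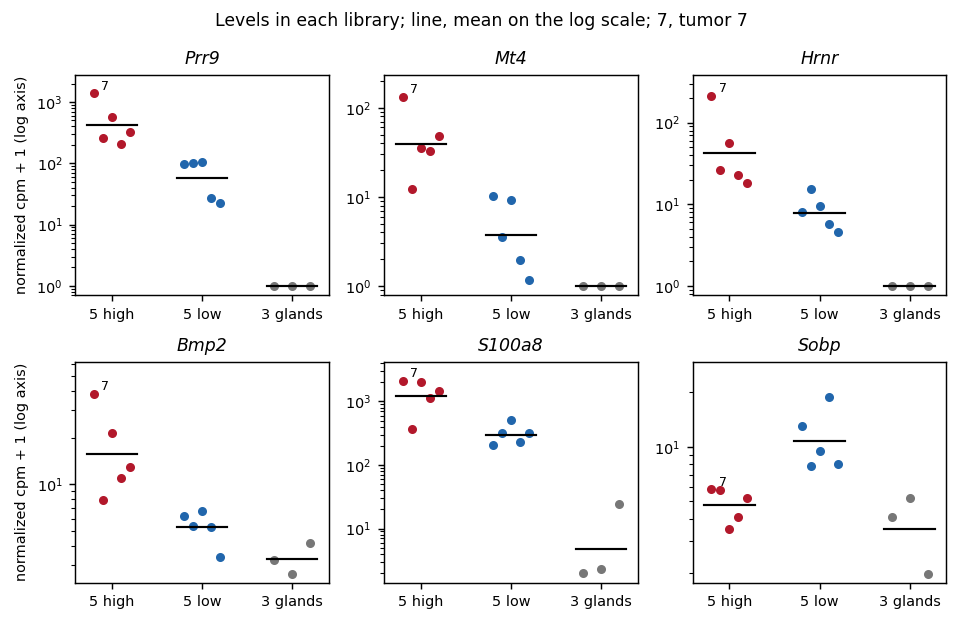
Normalized cpm + 1 (log axis) of Prr9, Mt4, Hrnr, Bmp2, S100a8 and Sobp in each library of the 5 high tumors, the 5 low tumors and the 3 wild-type glands; lines are means on the log scale and tumor 7 is marked. All 5 high tumors lie above all 5 low tumors in the first 4 genes and below them in Sobp, while S100a8 overlaps through tumor 10.

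In the other direction the differences were smaller, and 6 of the genes tested were lower by more than 2-fold, against 209 that were higher. Sobp, the sine oculis-binding protein homolog, had the largest difference below among genes without overlap, at 4.82, 4.74, 2.5, 3.07 and 4.22 in the high tumors and 12.1, 6.83, 8.43, 17.8 and 7.02 in the low tumors. No high tumor was above the filter of 5 normalized cpm, so Sobp was tested only through the low tumors, where it is high. The difference was -1.17 ± 0.27 (SE), or -1.25 without tumor 7 and -0.58 with the score as a continuous term. Adgrb1, an adhesion receptor, stood at 11.2, 19.7, 10, 12.9 and 14.2 against 23.7, 29.7, 42.1, 32.3 and 20.4, and Tcea3, a transcription elongation factor, at 2.73, 6.37, 5.46, 5.91 and 4.22 against 8.31, 8.36, 13.7, 16.8 and 9.78. The difference of Adgrb1 was -1.06, and -0.57 with the score as a continuous term. Tumor 7 was not the lowest tumor in Sobp. Differences of -0.85 to -0.56 were found for the other 7 at the top of that order, Col14a1, Grik3, BC034090, Dpysl4, Slc14a1, Adrb1 and Cyb5rl. With the score as a continuous term these were between -0.51 and -0.37. Podn, a small leucine-rich proteoglycan of the extracellular matrix, overlapped only through tumor 7, at 29.6, 14.7, 9.33, 15.5 and 13.8 against 30.8, 38.4, 38.8, 27.9 and 24.2, with a difference of -0.98 that became -1.21 without that tumor and -0.23 with the score as a continuous term.

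Of the signals that pattern the follicle, the BMP pathway list had 12 of 15 genes with a positive difference and a median of 0.30 (0.13 without tumor 7). Bmp2, a ligand that the differentiating hair matrix makes (chr2:133552159-133562896), stood at 37.4, 6.97, 20.5, 10 and 12 in the high tumors, 5.29, 4.35, 5.73, 4.27 and 2.4 in the low tumors and 2.27, 1.65 and 3.17 in the glands, without overlap. The difference was 1.57 ± 0.38 (SE, limma unadjusted p = 0.00142), or 1.25 without tumor 7. Bambi, a decoy receptor that BMP signals induce, stood at 87, 36.6, 62.8, 31.5 and 43.2 against 17.9, 27.8, 19.1, 14.3 and 22.5, also without overlap and with a difference of 1.25 ± 0.27 (SE). Among the inhibitors of differentiation that BMP induces, Id3 stood at 171, 49.1, 101, 44.3 and 56.3 against 47, 33.1, 29.2, 43.2 and 24.6 and Id1 at 172, 52.5, 79.9, 53 and 76.7 against 69, 40.7, 58.6, 62.7 and 47. Id3 overlapped only through tumor 2, which was below tumor 6, and Bmp4 did not order the tumors, with a difference of 0.26 ± 0.35 (SE) that became -0.06 without tumor 7.

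Shh, the Hedgehog ligand of the hair matrix, stood at 33.7, 7.41, 6.83, 5.91 and 4.9 in the high tumors and 7.55, 4.0, 3.26, 5.21 and 0.060 in the low tumors, and was listed at 0 in the glands. Its difference of 1.26 ± 0.59 (SE) was 0.80 without tumor 7, and the Hedgehog list as a whole had a median of 0.0057 over 13 genes, which became -0.28 without tumor 7, -0.46 with the mouse as a fixed term and 0.36 with the score as a continuous term. Wnt ligands had a median of 0.12 over 12 genes, which became -0.15 without tumor 7, -0.23 with the mouse as a fixed term and 0.29 with the score as a continuous term, and Wnt target and feedback genes one of -0.22 over 20, which became 0.047 with the score as a continuous term. Of these, Wif1, a secreted Wnt inhibitor, stood at 264, 58.8, 184, 69.5 and 77.5 against 74.8, 49.4, 54.3, 84.8 and 12.1. Sostdc1, a secreted inhibitor of BMP and Wnt signals that the dermal papilla and epithelium make, stood at 118, 58.4, 116, 37.1 and 36.7 against 27.7, 52.3, 20.3, 47.2 and 6.54. Both overlapped, with differences of 1.22 ± 0.54 and 1.33 ± 0.53 (SE). The Notch list had 9 of 14 positive and a median of 0.24, or -0.090 with the mouse as a fixed term.

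Markers of other cells were measured in the same tumors. The neutrophil list had 8 of 9 genes with a positive difference and a median of 0.58 (0.49 without tumor 7). Inside mice the median was -0.30 (4 of 9 positive) for tumors 2 and 3, 1.30 for tumors 5 and 6 and 0.70 for tumors 8, 9 and 10. S100a8, a subunit of calprotectin that neutrophils and stressed keratinocytes both make, stood at 2114, 360.4, 2027, 1144 and 1472 in the high tumors, 202, 316, 506, 231 and 318 in the low tumors and 0.985, 1.34 and 23.2 in the glands. Its difference was 2.02 ± 0.45 (SE), or 1.2 with the score as a continuous term, and only tumor 10 of the high set fell among the low tumors. S100a9, the partner subunit, stood at 1757, 118, 512, 488 and 589 against 88.7, 118, 385, 81.2 and 136. Csf3r, the G-CSF receptor of neutrophils, stood at 53.8, 7.41, 16.8, 21.5 and 20.6 against 9.53, 10.4, 36.1, 10.8 and 10.3, and Cxcr2 was between 1.04 and 11.5 in the high tumors and between 0.944 and 6.97 in the low tumors. The summed level of the list, to which Ltf of the mammary epithelium adds, was 1279.5 to 5323 in the high tumors and 1137 to 2833 in the low tumors. Whether neutrophils or keratinocytes carried the S100a8 difference was not tested.

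The remaining lists had medians between -0.36 and 0.15, against -0.02 for all genes. Luminal markers had a median of -0.16 over 18 genes, basal and myoepithelial markers -0.16 over 15, milk genes -0.15 over 14, proliferation genes -0.01 over 20, macrophage markers -0.08 over 13, fibroblast genes -0.05 over 13, adipocyte markers -0.14 over 13, lymphocyte markers -0.36 over 15 and skeletal muscle genes -0.31 over 9. The sebaceous gland list had a median of 0.06 over 12 genes, the dermal papilla list 0.15 over 15 and the melanocyte list 0.05 over 4. Of these 12 lists, the dermal papilla list kept its sign under every alternative and the other 11 did not. The milk list became 0.18 without tumor 7, 0.34 without tumor 9, -0.83 without the mouse of tumors 2 and 3 and 1.03 without tumors 6 and 9. Skeletal muscle genes summed to 2699.5 normalized cpm in tumor 4 and 435 in tumor 10, and lymphocyte genes to 388 in tumor 1 and at most 90.6 in any other tumor. Without tumor 4 the median of the skeletal muscle list was 0.85 and that of the adipocyte list 0.42, and without tumor 1 that of the lymphocyte list was 0.00019. Luminal markers turned positive only with scaling to simple epithelial genes, at 0.0055, and basal and myoepithelial markers with that scaling, at 0.0092, and with the score as a continuous term, at 0.15.

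The 3 mice with tumors in both sets allow the difference to be read inside a mouse, on log2(normalized cpm + 1). In the mouse of tumors 9, 10 and 8, the mean of tumors 9 and 10 exceeded tumor 8 for 10 of 10 inner root sheath genes, 13 of 13 shaft keratins and 27 of 27 keratin-associated proteins, with medians of 0.83, 1.21 and 1.02. In the mouse of tumors 5 and 6, the medians were -0.05, 0.43 and 0.99, with 5 of 10, 9 of 13 and 23 of 27 positive. In the mouse of tumors 2 and 3, they were 0.51, 0.27 and 0.02, with 8 of 10, 8 of 13 and 14 of 27 positive. Between 48.3% and 52.2% of all genes were positive in these mice. Read separately, tumor 9 exceeded tumor 8 for 8 of 10, 13 of 13 and 27 of 27 genes of these lists, and tumor 10 for 10 of 10, 11 of 13 and 12 of 27. The keratin-associated protein difference of that mouse thus rested on tumor 9, and summed over the list tumor 10 (9.49 normalized cpm) was below tumor 8 (11.1).

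Epidermal genes differed between mice in direction, with medians of -0.36 in the mouse of tumors 2 and 3, 0.53 in that of tumors 5 and 6 and 0.63 in that of tumors 8, 9 and 10. Outer root sheath genes had negative medians in each, at -0.33, -0.53 and -0.36. Of single genes, Mt4 was higher in the high tumor by 1.83, 2.24 and 2.52 in the 3 mice, Prr9 by 0.98, 1.77 and 1.92, Hrnr by 1.25, 1.21 and 1.31 and Bmp2 by 0.71, 1.04 and 1.29. For Sobp the differences were -1.21, -1.33 and -0.80. Because the sets do not overlap in these 5 genes, the sign inside each mouse is fixed by that choice, and only the sizes are described.

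**Figure D5:**
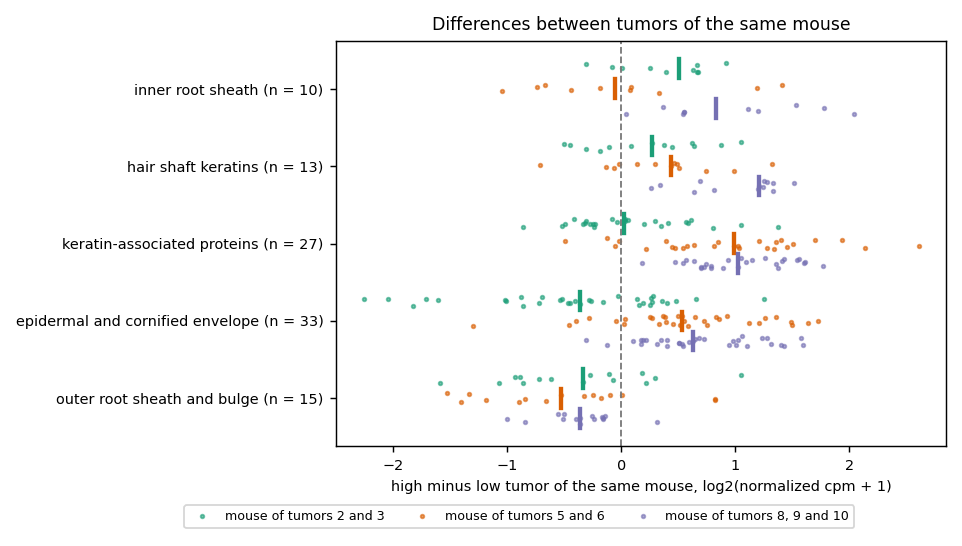
High minus low tumor of the same mouse, log2(normalized cpm + 1), for each gene (points) of 5 lists in the 3 mice with tumors in both sets; bars are medians, the dashed line marks no difference, and tumors 9 and 10 enter as their mean. Hair shaft and keratin-associated protein genes of the mouse of tumors 8, 9 and 10 all lie to the right, epidermal genes of the mouse of tumors 2 and 3 lie mostly to the left, and outer root sheath genes lie mostly to the left in every mouse.

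The genes most like the score across the 10 tumors, by Pearson's r of log2(normalized cpm + 1), were Krt27 (r = 0.976, Spearman's rho = 0.976), Prr9 (0.941 and 0.891), Hrnr (0.938 and 0.952), Mapkapk3 (0.927 and 0.818), Fbp1 (0.922 and 0.927) and Krt73 (0.921 and 0.891). These are descriptions over 10 points, of which 7 share a mouse with another and tumor 7 lies far from the rest. Of the 6 genes, 3 belong to the inner root sheath or epidermal lists and Prr9 lies in the same region of chromosome 3 as Tchh and Hrnr.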

How the data were processed

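Frozen tissue gave total RNA, whose reads the authors aligned to mm10 (Rsubread), assigned to genes (featureCounts) and scaled between libraries (edgeR). The strand setting is not given in the sources used here, so overlapping antisense genes cannot be told apart, nor can near-identical copies. The deposited signal values are gene read counts over the scaled size of each library. In every library 100% of them were whole multiples of the value of 1 read (tolerance 0.01 reads), and whole reads were recovered. Depth was 6176269 to 16835397 reads per tumor.

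The 3 genes, the sets and the gene lists were chosen with earlier results of these data known. Genes above 5 normalized cpm in at least 5 of 10 tumors were tested with limma 3.58.1 (R 4.3.3) on log2(normalized cpm + 1), with a trend on mean expression and no covariate, and Tchh, Krt25 and Krt71 were left out. Genes below the filter are given from the same fit without it. On recovered counts, edgeR 4.0.16 called 0 genes and DESeq2 1.42.0 called 28. Named genes were, by rule, Tsg101, the 10 with the largest difference in each direction among genes whose sets did not overlap, and the 2 with the largest difference of each list. All others were chosen after their values were seen.

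Alternatives were the filter, the pseudocount, library scaling, edgeR and DESeq2, the mouse as a random block, averages per mouse, leaving out each mouse or tumor, the score as a continuous term and all 13 libraries. Chosen after seeing the data were the mouse as a fixed block, leaving out tumors 6 and 9, and the continuous score without tumor 7. The scripts were tested on simulated data. Motifs were searched in the 250 bases before the RefSeq start only, although 50 bases after it had been planned. Coordinates were matched by Entrez ID for 15106 of 15213 genes. Replicates here are tumors, and p-values measure the spread between them.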

Additional observations from a re-analysis of the deposited data

Results flagged for a closer look

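In 18 of 143 values examined, 1 of the 10 tumors lay apart from the others by Dixon's criterion, the gap to the nearest tumor divided by the whole range on the log2 scale, with a critical value of 0.466. Chance alone does so in about 1 of 20 groups chosen without regard to their values. Many of the genes examined here were chosen for a large difference between the sets or after their values were seen. The genes of these lists also vary together. The count of 18 therefore cannot be judged against that rate, and the ratios below are descriptions only.

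Of the 18, tumor 7 was the outlying tumor in 14, always as the highest. Tumor 7 also had the highest score, and a high value in it raises the difference by which many of these genes were chosen. The summed list of hair matrix and differentiation regulators had a ratio of 0.659. Among its genes the ratios were 0.747 for Lef1, 0.601 for Msx2, 0.600 for Foxn1, 0.600 for Dsg4, a desmosomal cadherin of the hair shaft, and 0.561 for Dlx3. Krt27 and Krt72 of the inner root sheath had 0.495 and 0.480, Krt81 and Krt86 of the shaft 0.536 and 0.508, Krtap4-8 0.501, Wnt10b, a Wnt ligand of the hair placode, 0.534, and Bmp4 and Id1 of the BMP pathway 0.542 and 0.534. Lef1 was 9.12 normalized cpm in tumor 7, Dsg4 21.8 against at most 2.73 in the others, and Wnt10b 38 against at most 9.79.

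Tumor 1 was the outlying tumor for the summed lymphocyte list (0.601) and for Ms4a1, the B cell antigen CD20 (0.750), at 37 against at most 1.48 in the other tumors. Tumor 4 was the highest for Atp2a1, a calcium pump of skeletal muscle (0.499), at 491 against at most 33.5. Tumor 6 was the lowest for Lum, a collagen-binding proteoglycan (0.472), at 0.472 against at least 5.28. The part of lymphoid or muscle tissue in these libraries was not tested.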

How the results depend on the processing

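No gene was called between the 5 high and 5 low tumors by limma or edgeR under any alternative with the sets as defined, and DESeq2 called 25 higher and 3 lower, or 28 higher and 5 lower (5730409K12Rik, Adgrb1, Gfra1, Podn and Sobp) without tumor 7. Genes that only DESeq2 called higher included Gm11478 and the pseudogene Rps15a-ps4. Both were highest in tumor 9, at 13910 and 871 normalized cpm, and lowest in tumor 7, at 1174.5 and 44.2. In the glands they stood at 1037, 1059 and 9010 and at 6.47, 7.95 and 690. The part of Rn45s or RNA quality in such calls was not tested. The continuous score called 10 higher with tumor 7 and 0 without it. The cause of the difference between tools was not tested. Of the 110 genes followed through the alternatives, those listed next changed sign under one of the 26 settings, and the others kept theirs. Gata3 was -0.017 with plain library totals. Krt15 was 0.020 by edgeR and 0.018 by DESeq2, 0.50 with the continuous score and 0.22 without tumors 6 and 9, the libraries richest in Rn45s. With the continuous score Krt5 was 0.34, Krt14 0.34, Itgb4 0.066, Eng 0.036, Csn1s2b -0.072, Lum -0.18 and Tcf7l1 0.0034. Leaving out 1 tumor or 1 mouse gave -1.54 to 0.00019 for Ms4a1 (highest without tumor 1), -1.56 to 0.59 for Atp2a1 and -1.85 to 0.82 for Tnnt3 (without tumor 4), -1.46 to 0.31 for Csn2 (without tumor 9), -0.65 to 0.10 for Krt15 (without tumor 6), -0.16 to 0.56 for Padi1 (lowest without tumor 1), -0.21 to 0.81 for Sprr1a and -0.061 to 0.47 for Bmp4 (both lowest without tumor 7), -0.096 to 1.24 for Lum (lowest without the mouse of tumors 5 and 6) and -0.036 to 0.95 for Lef1 (without tumor 7). With the mouse as a fixed term Acsbg1 was -0.15, Atp2a1 0.11, Cidea -0.27, Csn2 0.11, Krt6b -0.030, Ms4a1 0.12, Padi1 -0.39, Sprr1a -0.32, Tnnt3 0.76, Hoxc13 -0.055, Lef1 -0.071 and Krt75 -0.85. Without tumors 6 and 9, Csn2 was 1.10, Lum -0.010 and Tcf7l1 0.050, and 314 genes had an unadjusted p below 0.05. The median of the inner root sheath list ranged from 0.55 to 2.16 over all settings, that of the shaft keratins from 0.58 to 2.60, that of the keratin-associated proteins from 0.72 to 2.79 and that of the epidermal list from 0.32 to 1.36, with the fixed mouse term giving the lowest of each (0.55, 0.58, 0.72 and 0.32). In that setting tumors 7, 4 and 1, each alone in its mouse, add nothing to the difference. With plain library totals the median of all genes tested was -0.22, and with scaling to simple epithelial genes 0.12. By replicate number no paired analysis was possible because the numbers that tumors share with glands link no samples of the high and low sets. Tumors of both sets could be paired inside 3 mice, and the mouse was fitted as a fixed term (0 genes called) and as a random term, with a consensus correlation of 0.1998 (0 called). Most keratin-associated proteins and many shaft keratins were near the floor of 3 reads in the low tumors, which limits the precision of their differences.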
